A study of Homo sapiens with 12 samples.

Results

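Glutathione is made, recycled and degraded by a small set of enzymes, and 9 of their genes were followed here in the transcriptome of Hs 578T cells: GCLC, GCLM, GSS, GSR, GLRX, CHAC1, CHAC2, GGCT and OPLAH. They were chosen by name, as the genes of synthesis, reduction and breakdown of glutathione, and all 9 were found among the 55765 gene symbols of the count tables. The choice was made with earlier results of these data known, and the paper reported GCLM among the genes changed in these libraries. Counts of DEGs among the 9 genes are therefore a description and no independent support. Hs 578T is a triple-negative breast cancer (TNBC) line of the mesenchymal stem-like subtype. The cells carried a lentivirus for expression of GFP or of full-length NRF2, and they were grown for 8 h in a medium without cystine (w/o Cyss) or in the same medium with 0.8 mM cystine (Cyss). Each of the 4 groups, called GFP with Cyss, GFP without Cyss, NRF2 with Cyss and NRF2 without Cyss, had 3 RNA-seq libraries. All groups therefore carried a lentiviral transgene and received methionine, glutamine and serum. Per the paper's methods, RNA was collected a few days after transduction, and no step of cloning is named. The sources used here do not name the promoter of the transgene. Nor do they say that the 3 libraries of a group came from separate cultures, so that p-values measure the spread between these libraries, which may be technical.

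Glutathione is a tripeptide of glutamate, cysteine and glycine. GCLC and GCLM encode the catalytic and the modifier subunit of glutamate-cysteine ligase, which joins glutamate to cysteine and sets the rate of synthesis, and GSS encodes glutathione synthetase, which adds glycine. GSR, glutathione reductase, uses NADPH to return oxidized glutathione to its reduced form, and GLRX, glutaredoxin, removes glutathione from protein thiols. CHAC1 and CHAC2 are cytosolic cyclotransferases that cleave glutathione into 5-oxoproline and cysteinylglycine, GGCT releases 5-oxoproline from other gamma-glutamyl peptides, and OPLAH, 5-oxoprolinase, opens 5-oxoproline to glutamate. The transcription factor NRF2, encoded by NFE2L2, drives synthesis and reduction genes through antioxidant response elements (AREs) and is held down by KEAP1, whereas ATF4, a factor of the response to amino acid shortage and to stress of the endoplasmic reticulum, is known to drive CHAC1.

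The promoters of GCLM and CHAC1 are shown because these 2 genes stand for the synthesis and the breakdown arm. They were also the only genes searched with a match to a motif named below, so the choice coincides with the outcome of the search. RefSeq promoter windows run from 250 bases before to 50 bases after a transcription start site on GRCh38.p14. The windows used here covered 5 of the 9 genes (GCLC, GCLM, CHAC1, CHAC2 and GLRX). They were searched on both strands for the core of the ARE, TGACNNNGC, and for the C/EBP-ATF response element bound by ATF4, TGATGNAA. The 2 motifs did not overlap where they were found. Each window is written 5′ to 3′ on the strand of its gene, and capitals mark the match, which in both windows reads as the motif on the opposite strand.
GCLM, minus strand, chr1:93909381-93909680, with the ARE core: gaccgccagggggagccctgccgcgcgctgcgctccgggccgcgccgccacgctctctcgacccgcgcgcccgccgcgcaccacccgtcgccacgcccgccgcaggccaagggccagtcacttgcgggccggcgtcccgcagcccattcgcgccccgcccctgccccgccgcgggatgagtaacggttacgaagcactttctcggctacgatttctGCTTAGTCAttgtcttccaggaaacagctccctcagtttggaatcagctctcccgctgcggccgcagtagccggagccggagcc
CHAC1, plus strand, chr15:40953221-40953520, with the C/EBP-ATF response element: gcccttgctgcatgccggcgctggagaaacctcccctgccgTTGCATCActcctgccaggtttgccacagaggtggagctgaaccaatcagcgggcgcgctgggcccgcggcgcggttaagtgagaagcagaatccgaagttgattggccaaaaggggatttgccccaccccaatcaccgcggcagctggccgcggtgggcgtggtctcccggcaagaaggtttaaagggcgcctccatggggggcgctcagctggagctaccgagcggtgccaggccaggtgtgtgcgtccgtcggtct

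In GCLM the match lay at -34 to -26 from the start site, and in CHAC1 at -209 to -202. Neither motif was found in the windows of GCLC, CHAC2 and GLRX, which says only that these letters are not in those windows. GSS, GSR, GGCT and OPLAH had no window among those used and were not searched for either motif. Any window of the 9 genes on chromosome 8, where GSR and OPLAH lie, was left out of the search beforehand. Whether their promoters hold a match was therefore not tested. The ARE core was present in 13.3% and the C/EBP-ATF response element in 3.62% of 35116 promoter windows of the same table. A match to the ARE core alone is therefore common, and the matches to both motifs are given as a description.

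Reads counted on genes numbered from 27250993 to 44596870 per library, and the 9 genes had from 128 reads (CHAC2) to 4928 reads (GCLM) in a library. Between libraries of the same group the counts varied beyond sampling noise (chi-square divided by its degrees of freedom, 2.22 to 13). The value of 13 was that of replicates 1 and 3 of NRF2 without Cyss, a group with a range of 5.53 to 13. The highest value in any other group was 7.08, in GFP with Cyss. NFE2L2, the gene of the transgene, had 3786 ± 108 (SD, n = 3) normalized counts in GFP with Cyss and 6696 ± 198 (SD, n = 3) in NRF2 with Cyss, and 4589.7 ± 96.9 (SD, n = 3) and 7940.0 ± 614 (SD, n = 3) w/o Cyss, which goes with the labels; reads of the transgene and of the endogenous gene were not separated. The labels call the line epithelial, but EPCAM, KRT19, CLDN3, CLDN7, ESRP1 and GRHL2 were at 0 in 4 to 9 of the 12 libraries. The other 6 of 12 epithelial markers were detected in every library, led by KRT18 at 22.9 to 43.7 CPM (reads scaled to a fixed library total) and KRT8 at 4.48 to 6.99 CPM. The sum of the 12 was 34 to 38.2 CPM in GFP with Cyss, 40.6 to 50.8 in GFP without Cyss, 28.3 to 31.7 in NRF2 with Cyss and 39.6 to 48 in NRF2 without Cyss, without overlap between the media, and its part in the results was not tested. These sums stand against 49600 to 52400 for 10 mesenchymal markers, all 10 of which were detected in every library. Of 8 markers of blood and endothelial cells, 7 were among the symbols of the count tables. Of these, 5 had any read, with a sum of 1.24 to 2.62 CPM. The library GFP without Cyss replicate 3 stood away from its group on the first principal component (-4.82, against 4.19 and 6.88 for the other two), and values of GSR, GLRX and GCLM without it are given below where it moved them. In these bulk RNA samples, fewer cells of a kind and less RNA per cell cannot be told apart.

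Normalized counts are reads scaled to a common library size with edgeR's TMM method over the 12 libraries. A log2 fold change (log2FC) comes from edgeR's quasi-likelihood test within the 6 libraries of a comparison, with Benjamini-Hochberg adjustment over all genes tested, and differentially expressed genes (DEGs) were those with a log2FC beyond 0.32 in either direction and an adjusted p below 0.1. Comparisons that have a group in common share its libraries and are not independent.

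The plot of normalized counts by library shows the whole set, and the plot of changes shows each comparison.

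**Figure D1:**
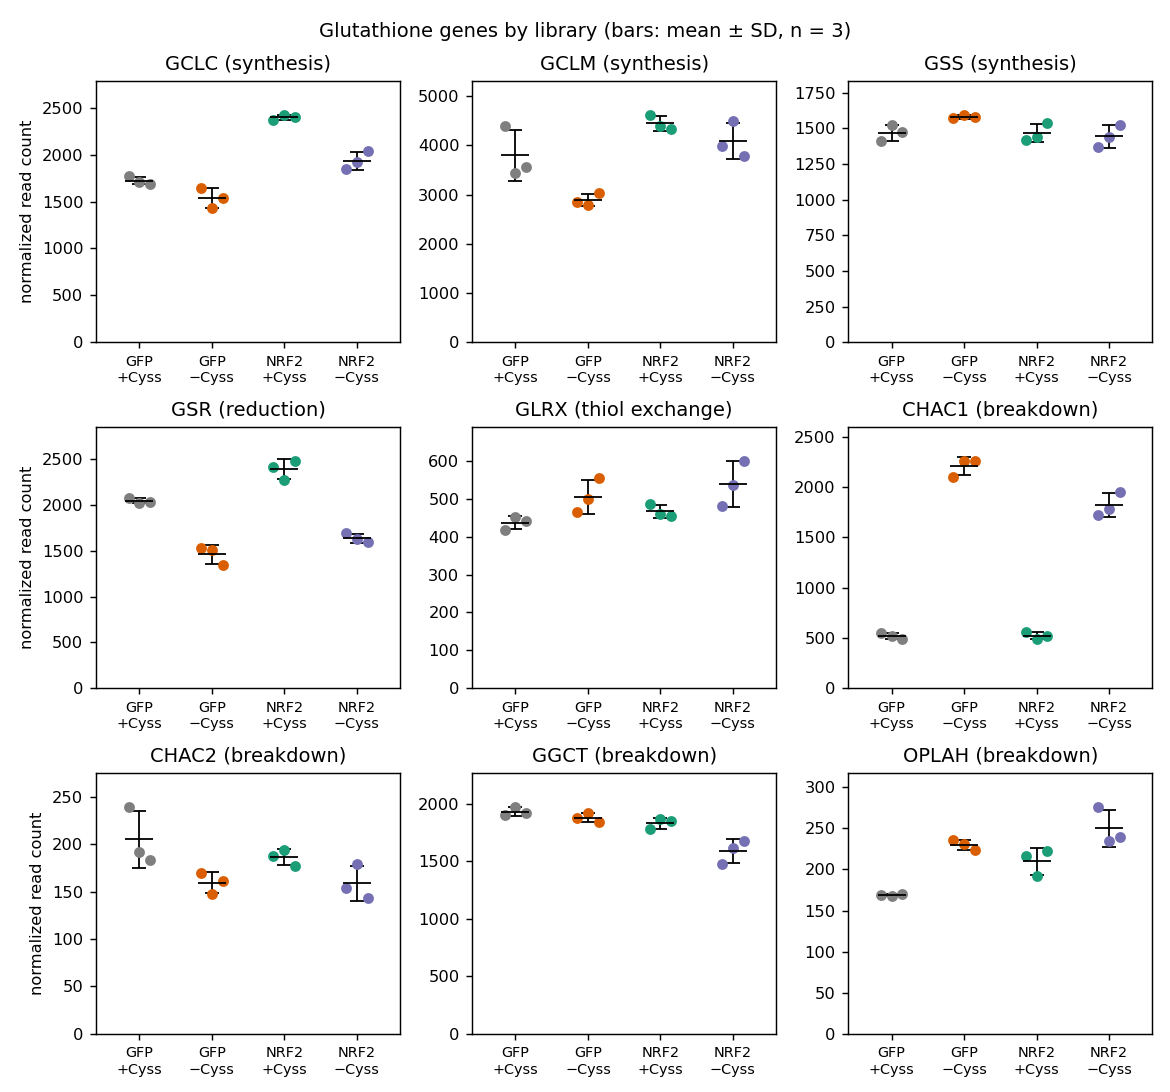
Normalized read count (y axis, from 0) of the 9 glutathione genes in each library, by group (x axis; +Cyss, with Cyss; −Cyss, w/o Cyss). Points are libraries and black bars are the mean ± SD (n = 3). CHAC1 lies between 487.7 and 559.2 in the 6 libraries with Cyss and between 1719.7 and 2263.7 in the 6 without, while GCLC is highest in NRF2 with Cyss (2367.6 to 2424.6).

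**Figure D2:**
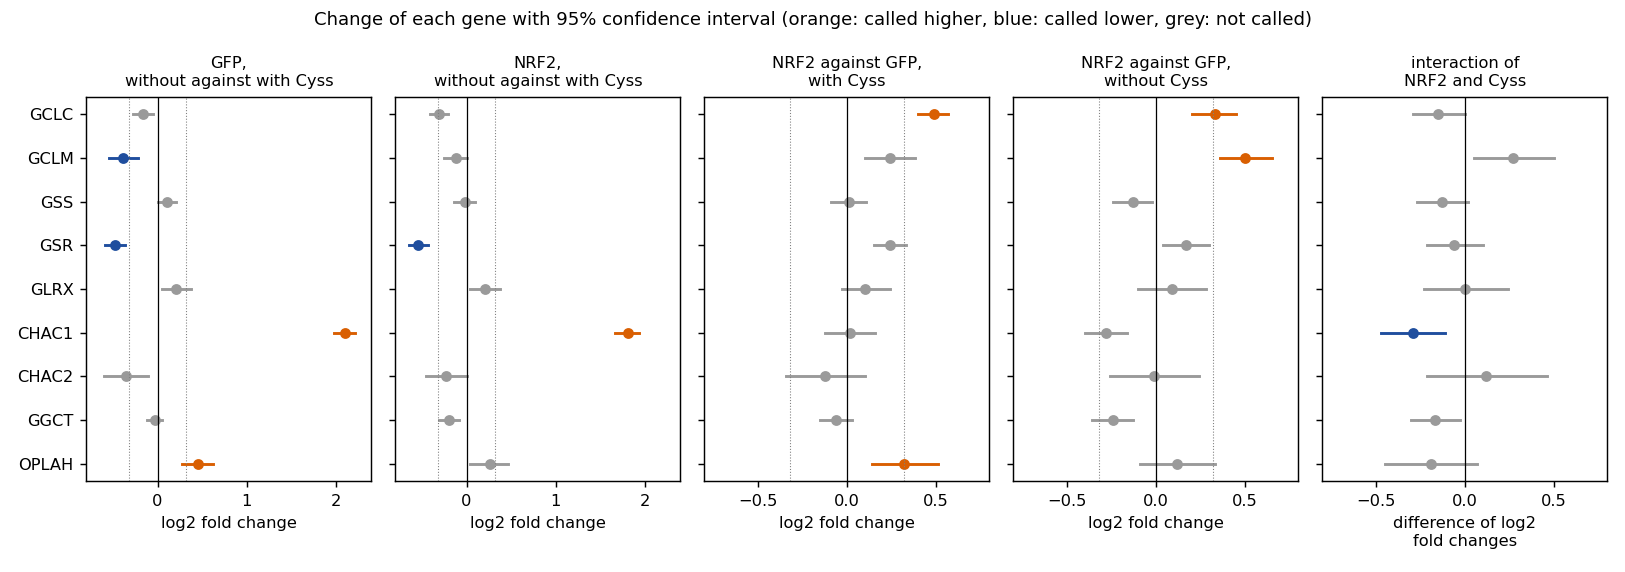
log2FC (x axis; for the interaction, the difference of log2FCs between NRF2 and GFP cells) of the 9 glutathione genes (rows) in 5 comparisons, with 95% confidence intervals. Orange points were called higher, blue points were called lower and grey points were not called; dotted lines are the fold change threshold of 0.32. The rise of CHAC1 without Cyss, 2.1 in GFP and 1.81 in NRF2 cells, is larger than any other change shown.

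The first question was how these genes answer the loss of Cyss in control cells. In GFP cells CHAC1 rose 4.28-fold and OPLAH 1.36-fold w/o Cyss, while GCLM and GSR fell to 0.764 and 0.716 of their level. Thus 2 of 9 genes were upregulated DEGs and 2 were downregulated DEGs, against 1.57% upregulated and 0.533% downregulated among 17452 genes tested. The median log2FC of the 9 genes was -0.03, beside 0.00 for all genes tested. By role, the DEGs were 1 of 3 synthesis genes, which was lower, 1 of 2 reduction genes, which was lower, and 2 of 4 breakdown genes, which were higher.

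CHAC1 (chromosome 15, 41245160 to 41248710 on GRCh37) had 544.1, 520.9 and 488.5 normalized counts in the GFP libraries with Cyss and 2104.2, 2263.1 and 2263.7 in those without. All libraries w/o Cyss were above all with Cyss, and the libraries of a group lay close together. The log2FC was 2.1 (standard error 0.0562, 95% confidence interval 1.98 to 2.22, adjusted p = 1.21e-10 in the edgeR test). CHAC2 (chromosome 2, 53994941 to 54002333), the homologue with the same reaction, did not share this direction. It had 183.6 to 239.5 normalized counts with Cyss and 147.6 to 169.1 without, with a log2FC of -0.35 (95% confidence interval -0.60 to -0.11) and an adjusted p of 0.116 in the edgeR test, above the threshold. CHAC2 was a downregulated DEG under 5 of 11 other settings of the processing and in 0 of 6 fits that left out a library.

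OPLAH (chromosome 8, 145106167 to 145118868), which takes up the 5-oxoproline released by the cyclotransferases, had 169.2, 167.6 and 170.4 normalized counts with Cyss and 235.5, 230.6 and 223.6 without. The media did not overlap, with a log2FC of 0.45 (standard error 0.0785, adjusted p = 0.00597 in the edgeR test). GGCT (chromosome 7, 30536237 to 30544457), which acts on other gamma-glutamyl peptides, had 1901.2 to 1977.2 normalized counts with Cyss and 1842.8 to 1924.2 without. These ranges overlapped, and the 95% confidence interval of its log2FC was -0.12 to 0.05.

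GSR (chromosome 8, 30535583 to 30585363) had 2081.1, 2028.8 and 2037.4 normalized counts with Cyss and 1535.7, 1509.1 and 1342.9 without. The lowest value was that of the library apart on the principal component, without which the log2FC was -0.43 in place of -0.48 (standard error 0.0509, adjusted p = 8.12e-05 in the edgeR test). GLRX (chromosome 5, 95087023 to 95158430) had 419.4 to 452.8 normalized counts with Cyss and 464.9 to 554.7 without, and its log2FC of 0.21 had an adjusted p of 0.146 in the edgeR test. The highest value was again that of GFP without Cyss replicate 3, without which the log2FC was 0.14.

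GCLM (chromosome 1, 94350755 to 94375012) had 4388.3, 3440.2 and 3557.3 normalized counts with Cyss and 2837.8, 2793.4 and 3033.3 without. Replicate 1 with Cyss stood above the other libraries of its group. The log2FC was -0.39 (standard error 0.0759, adjusted p = 0.0126 in the edgeR test), and without GFP with Cyss replicate 1 it was -0.27 and GCLM was no DEG, as the fold change fell under the threshold. GCLC (chromosome 6, 53362139 to 53481768), the catalytic subunit, had 1690.3 to 1772.1 normalized counts with Cyss and 1434.2 to 1647.4 without, with a log2FC of -0.16 and an adjusted p of 0.126 in the edgeR test. GSS (chromosome 20, 33516235 to 33543830) had 1414.1 to 1525.2 normalized counts with Cyss and 1571.9 to 1593.3 without, with a log2FC of 0.11 and an adjusted p of 0.228. The libraries of both media did not overlap for 8 of the 9 genes, GGCT being the exception, against 23.8% of all 17452 genes tested.

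The same comparison was then made in cells with exogenous NRF2. CHAC1 rose 3.5-fold w/o Cyss and GSR fell to 0.688 of its level, so that 1 of 9 genes was an upregulated and 1 a downregulated DEG, against 6.81% and 5.14% of 17266 genes tested. The median log2FC of the 9 genes was -0.12, beside -0.01 for all genes tested. With scaling by library size only, the DEGs of this comparison numbered 936 higher and 1397 lower in place of 1176 and 887.

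CHAC1 had 559.2, 487.7 and 520.7 normalized counts in NRF2 with Cyss and 1719.7, 1788.4 and 1952.6 in NRF2 without Cyss. The groups were again fully apart, with a log2FC of 1.81 (standard error 0.0649, 95% confidence interval 1.67 to 1.94, adjusted p = 1.92e-10 in the edgeR test). GSR had 2419.8, 2269.8 and 2484.1 normalized counts with Cyss and 1694.7, 1625.7 and 1599.3 without. The groups were apart, with a log2FC of -0.54 (standard error 0.0531, adjusted p = 3.46e-06 in the edgeR test), and GSR was a downregulated DEG under every other setting and left-out library in both GFP and NRF2 cells.

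For the ligase, it was GCLC rather than GCLM whose libraries separated. GCLC had 2367.6, 2424.6 and 2408.6 normalized counts with Cyss and 1848.0, 1925.5 and 2038.2 without, with a log2FC of -0.31 (standard error 0.0473, adjusted p = 2.79e-04 in the edgeR test), just inside the fold change threshold and therefore no DEG. It was a DEG when counts were scaled by library size only, where its log2FC was -0.37, and without NRF2 without Cyss replicate 3. GCLM had 4614.0, 4395.2 and 4323.9 normalized counts with Cyss and 3987.0, 4502.7 and 3776.9 without. Replicate 2 w/o Cyss lay among the libraries with Cyss, and the log2FC was -0.12 with a 95% confidence interval of -0.25 to 0.01.

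Of the other genes, OPLAH had a log2FC of 0.26, GLRX of 0.21 and GGCT of -0.20, with adjusted p of 0.0847, 0.0671 and 0.0126 in the edgeR test but changes under the fold change threshold. OPLAH had 191.7 to 222.0 normalized counts with Cyss and 234.3 to 276.4 without, and GGCT had 1779.4 to 1868.5 and 1475.7 to 1675.0. GSS had overlapping libraries, with a log2FC of -0.02 (95% confidence interval -0.14 to 0.09), as did CHAC2, with a log2FC of -0.23 and an adjusted p of 0.153.

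Exogenous NRF2 was next compared with GFP in the presence of Cyss. GCLC rose 1.40-fold and OPLAH 1.25-fold, and no gene of the set was a downregulated DEG. The 2 upregulated DEGs of 9 genes stand against 1.36% of 17449 genes tested, and the 0 downregulated DEGs against 0.201%. At an unadjusted p under 0.05 in the edgeR test 0 of the 9 were lower either, against 8.6% of all genes tested, and DESeq2 gave 0 downregulated DEGs. The median log2FC of the 9 genes was 0.10, beside 0.00 for all genes tested, and 7 of the 9 had a positive log2FC.

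All libraries of GCLC with exogenous NRF2 lay above all with GFP, and the log2FC was 0.49 (standard error 0.0399, adjusted p = 1.08e-06 in the edgeR test). GCLM and GSR each had a log2FC of 0.24, with adjusted p of 0.0572 and 0.00483 in the edgeR test and changes under the fold change threshold. For GCLM the GFP library of 4388.3 normalized counts lay within the NRF2 group, and without that library the log2FC was 0.35 and GCLM was an upregulated DEG. The OPLAH libraries did not overlap, but its log2FC of 0.32 (standard error 0.0880, adjusted p = 0.0564 in the edgeR test) lay at the threshold. OPLAH was no DEG in 4 of 6 fits that left out a library, nor with DESeq2 (adjusted p = 0.133, in a range of 0.0450 to 0.133 over the settings other than left-out libraries).

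CHAC1 had the same range in both kinds of cells while Cyss was present. Its log2FC was 0.02 with a 95% confidence interval of -0.12 to 0.16, and the NRF2 libraries spanned the GFP libraries. GSS, CHAC2, GGCT and GLRX had log2FCs of 0.01, -0.12, -0.06 and 0.10, none a DEG.

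Without Cyss, exogenous NRF2 was associated with higher levels of both ligase subunits. GCLM rose 1.42-fold and GCLC 1.26-fold, making 2 upregulated DEGs of 9 genes against 5.98% of 17297 genes tested, with 0 downregulated DEGs against 4.09%. At an unadjusted p under 0.05 in the edgeR test, 3 of the 9 genes were lower, namely CHAC1, GGCT and GSS, against 18.1% of all genes tested. DESeq2 also gave 0 downregulated DEGs, with CHAC1 and GGCT under its adjusted p threshold (0.00134 and 0.00631) but not past the fold change threshold. The median log2FC of the 9 genes was 0.09, beside -0.02 for all genes tested. With scaling by library size only, the DEGs over all genes numbered 876 higher and 1001 lower in place of 1034 and 708.

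The log2FC of GCLM was 0.50 (standard error 0.0667, adjusted p = 5.81e-04 in the edgeR test), and its lowest NRF2 library, 3776.9 normalized counts, lay above its highest GFP library, 3033.3. For GCLC the log2FC was 0.33, with a standard error of 0.0576, an adjusted p of 0.00258 in the edgeR test and no overlap between groups. The GCLC call was lost to the fold change threshold without NRF2 without Cyss replicate 3 (log2FC 0.30), without GFP without Cyss replicate 2 (0.28) and with scaling by library size only (0.30). GSR had a log2FC of 0.17 (0.11 without GFP without Cyss replicate 3).

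No breakdown gene was a DEG here. CHAC1 was lower with exogenous NRF2 in every library, with a log2FC of -0.28 (95% confidence interval -0.40 to -0.16, adjusted p = 0.00517 in the edgeR test), under the fold change threshold. GGCT had a log2FC of -0.24 (adjusted p = 0.00813 in the edgeR test), also with separate groups and also under the threshold, and GSS had -0.13. OPLAH, CHAC2 and GLRX overlapped between the groups, with log2FCs of 0.12, -0.01 and 0.09.

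Whether exogenous NRF2 altered the answer to Cyss loss was tested as an interaction over all 12 libraries, called at an adjusted p under 0.1. CHAC1 was called lower, that is, its rise w/o Cyss was smaller in NRF2 than in GFP cells by 0.29 on the log2 scale (log2 difference -0.29, standard error 0.0869, 95% confidence interval -0.47 to -0.11, adjusted p = 0.0428 in the edgeR test). This made 1 of 9 genes lower against 6.13% of 17674 genes tested, and 0 higher against 8.97%. With scaling by library size only, the genes called over the whole table numbered 1124 higher and 1981 lower in place of 1585 and 1084. The CHAC1 call ended without NRF2 with Cyss replicate 1 (adjusted p = 0.119 in the edgeR test). It also ended without either of the libraries GFP with Cyss replicate 3 and GFP without Cyss replicate 2 (adjusted p = 0.111 in both edgeR fits), in a range of 0.0140 to 0.119 over the 12 left-out libraries.

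GCLM had the largest positive difference, 0.27 (95% confidence interval 0.05 to 0.50, adjusted p = 0.121 in the edgeR test), so that a difference between its drops in GFP and NRF2 cells was not called. At an unadjusted p under 0.05, 1 of the 9 genes was higher, GCLM, against 13.5% of all genes tested, and 3 were lower, CHAC1, GGCT and GCLC, against 11.2%. GCLM was called higher by DESeq2, with no filter on low counts and with the replicate block, 3 of 9 other settings. It was also called higher in 3 of 12 edgeR fits that left out a library, among them that without GFP without Cyss replicate 3 (0.31, adjusted p = 0.0892). Over these 12 fits the difference ranged from 0.16 to 0.34 and the adjusted p of the edgeR test from 0.0310 to 0.310. The 9 genes were otherwise not called, with GCLC at -0.15, GSS at -0.13, GSR at -0.06, CHAC2 at 0.12, GGCT at -0.17, OPLAH at -0.19 and GLRX at 0.00. For GSR, which fell in both kinds of cells, the 95% confidence interval of the difference was -0.21 to 0.10.

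Levels of different genes were compared per kilobase of the canonical transcript, as normalized counts per kb. With Cyss, CHAC1 ranked 7 of 9, at 341 ± 18.4 (SD, n = 3) in GFP and 344 ± 23.5 (SD, n = 3) in NRF2 cells. Without Cyss it ranked 2 of 9, at 1454 ± 60.5 and 1198 ± 78.7 (SD, n = 3 each), next to GGCT, which ranked 1 in every group with 1669, 1625, 1583 and 1374 in GFP with Cyss, GFP without Cyss, NRF2 with Cyss and NRF2 without Cyss. The ranges of GGCT and CHAC1 overlapped in NRF2 without Cyss but not in GFP without Cyss. CHAC2 ranked 8, from 121 to 157, and OPLAH 9, from 42.1 to 62.1, in all groups. Among neighbours in the order, GCLM and GSS (777 and 770.2) and GLRX and GCLC (469.7 and 456) overlapped in GFP with Cyss, and GCLM, GLRX and GSR in turn (591, 543 and 482) in GFP without Cyss. GSR and GSS overlapped in NRF2 with Cyss (788 and 768), and GCLM and GSS (837 and 756) and GLRX, GSR and GCLC in turn (579, 541 and 512) in NRF2 without Cyss. Apart from these and from GGCT and CHAC1 above, neighbours did not overlap. With the length of all exons of a gene in place of the canonical transcript, CHAC1 ranked 4 and 5 with Cyss and again 2 without, and GLRX ranked 8.

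**Figure D3:**
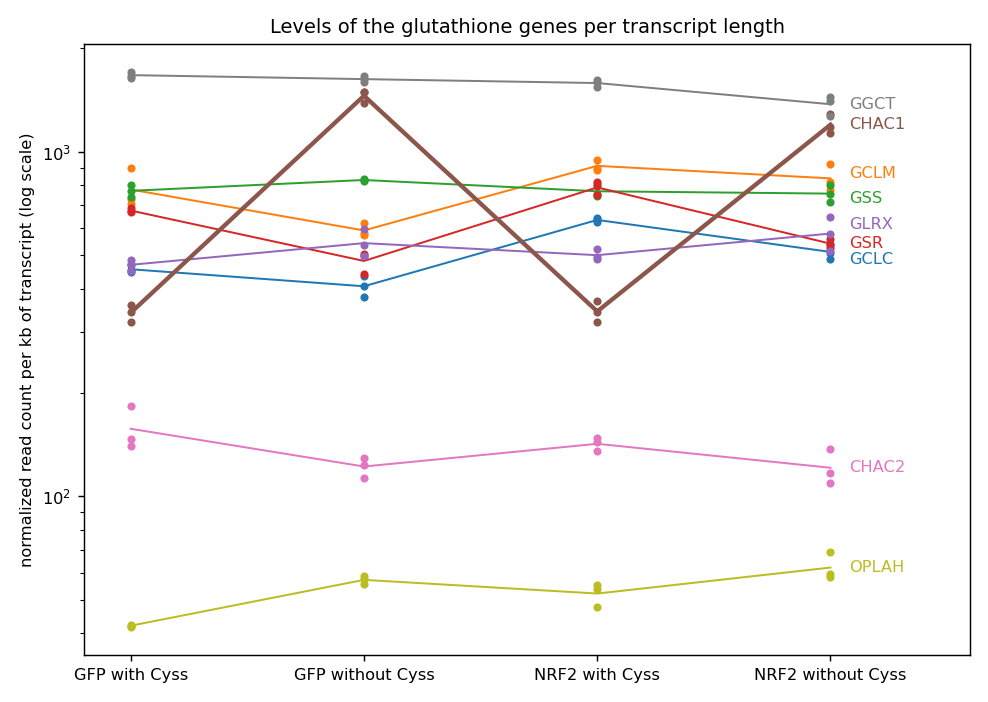
Normalized read count per kb of canonical transcript (y axis, log scale) of the 9 glutathione genes in the 4 groups (x axis). Points are libraries and lines join the group means (n = 3); the thick line is CHAC1, which moves from rank 7 with Cyss to rank 2 without Cyss in both GFP and NRF2 cells.

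The level of CHAC1 was set beside those of synthesis genes as ratios of these per-kb levels within a library, given as a description. CHAC1 is 1 of 4 breakdown genes, and GGCT, CHAC2 and OPLAH do not enter the ratios to synthesis genes. CHAC1 to GCLC was 0.747 ± 0.0238 (SD, n = 3) in GFP with Cyss and 3.59 ± 0.380 (SD, n = 3) in GFP without Cyss. In NRF2 cells it was 0.542 ± 0.0437 (SD, n = 3) with Cyss and 2.34 ± 0.0436 (SD, n = 3) without. The ratio of CHAC1 to GCLM was 0.442, 2.46, 0.377 and 1.44 in the same order. All 6 libraries w/o Cyss were above 1 and all 6 with Cyss below 1 for both ratios. The side of 1 depends on the length used: with the length of all exons, CHAC1 to GCLC was 1.21 to 1.29 in GFP with Cyss, above 1, and 0.845 to 0.992 in NRF2 with Cyss. Among the libraries w/o Cyss those with exogenous NRF2 had the lower values (2.31 to 2.39 against 3.18 to 3.93 for GCLC, and 1.28 to 1.66 against 2.38 to 2.60 for GCLM). For GSS the NRF2 and GFP groups lay closer together. CHAC1 to GSS was 0.443 in GFP and 0.448 in NRF2 cells with Cyss. Without Cyss it was 1.68 to 1.80 in GFP and 1.56 to 1.61 in NRF2 cells. GCLM to GCLC, the modifier to the catalytic subunit, was between 1.34 and 1.92 in all libraries. CHAC1 to CHAC2 was 2.20 and 2.42 with Cyss and 12 and 9.99 without, in GFP and NRF2 cells.

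Other genes with functions around glutathione were taken as a list of 42, of peptidases, glutaredoxins, peroxidases, transferases, carriers and detoxifying enzymes, of which 36 or 37 passed the filter on low counts. In GFP cells w/o Cyss 1 of 37 was higher, against 1.57% of all genes, and 0 lower, against 0.533%. It was SLC3A2, the heavy chain that carries the cystine antiporter to the membrane, with a log2FC of 0.50 and 18736 and 26327 normalized counts with and without Cyss. In NRF2 cells w/o Cyss 2 of 37 were higher and 4 lower, counts to be read against the 6.81% and 5.14% of all genes, so that the genes named are single genes and not a result of the list. ANPEP, an aminopeptidase that can split cysteinylglycine, rose by 0.65, whereas MGST1 and GSTA4, glutathione transferases, fell by 0.40 and 0.38, and GPX1, a glutathione peroxidase, fell by 0.37 on the log2 scale. With exogenous NRF2, SLC7A11, the antiporter's transport subunit, rose by 0.64 both with and without Cyss. With Cyss it was the 1 upregulated gene of 37 (1.36% of all genes), and w/o Cyss 3 of 36 were upregulated (5.98% of all genes), ANPEP by 0.53 among them, with 0 downregulated in either medium. In the interaction 1 of 37 was called higher, ANPEP at 0.47, and 10 lower (8.97% and 6.13% of all genes), led by GSTZ1 at -0.50, GSTA4 at -0.30 and SLC3A2 at -0.28. The median log2FC of the list lay between -0.08 and 0.00 in the 5 comparisons.

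Lists of known targets of NRF2 and ATF4, without the 9 genes but with SLC7A11 in both, were counted beside them. The NRF2 list holds TXNRD1, SRXN1, OSGIN1, TRIM16L and AKR1B10, and the ATF4 list holds DDIT3, DDIT4 and NUPR1. The paper reported changes of these genes in the same libraries, so the counts of both lists are a description and no independent support. Among all genes tested, 1.57% rose and 0.533% fell w/o Cyss in GFP cells, and 6.81% and 5.14% in NRF2 cells. With exogenous NRF2, 1.36% rose and 0.201% fell in the presence of Cyss, and 5.98% and 4.09% in its absence. Of 25 NRF2 targets, 7 fell and 1 rose w/o Cyss in GFP cells (median log2FC -0.24) and 13 fell in NRF2 cells (median -0.33), while 13 rose with exogenous NRF2 in the presence of Cyss (median 0.33) and 11 in its absence (median 0.25). Of 30 ATF4 targets, 28 rose w/o Cyss in GFP cells (median log2FC 0.72) and 26 in NRF2 cells (median 0.75). Exogenous NRF2 gave 1 higher with Cyss and 3 higher and 3 lower without (medians 0.02 and -0.07). These few are not read as a result of the list. In the interaction, 14 NRF2 targets and 9 ATF4 targets were lower, against 6.13% of all genes, and 2 of each were higher, against 8.97%, a share that the latter do not exceed.

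The genes whose normalized counts followed those of a member most closely were sought over the 12 libraries among 13527 genes with a mean of at least 50, as Pearson's r on the log2 scale. These libraries share the 4 groups, so that r describes mainly the order of the groups. Closest to CHAC1 were ASNS, CARS, VLDLR, MTHFD2P7 and HERPUD1, with r from 0.994 to 0.996. ASNS, asparagine synthetase, had 3087, 7959, 2985 and 6704 normalized counts in GFP with Cyss, GFP without Cyss, NRF2 with Cyss and NRF2 without Cyss. Closest to GCLM were ANGPT1 (r = 0.971), IGF2BP3, TSPAN13, SLC2A13 and WNT5A (r = 0.928), and to GCLC AKR1C1 (r = 0.972), MDGA1, F2RL2, AKR1B10 and DGKG (r = 0.960), with AKR1C1, an aldo-keto reductase, at 1206, 1051, 2995 and 1925. Closest to GSR were KIAA1522, FOXF2, SLC2A10, TRIM16L and EXTL3, with r from 0.967 to 0.969. Within the set, r ranged from -0.93 between GSR and CHAC1 to 0.82 between GCLC and GCLM. Genes of the same role were not always alike. The synthesis genes GCLM and GSS had -0.78. Among breakdown genes, CHAC1 had -0.75 with CHAC2 but 0.76 with OPLAH.

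Reads were counted without regard to strand, and some of these genes share sequence with others in GENCODE 44. A same-strand gene covers 27.7% of the exon bases of GGCT, GSS shares 2.24% with MYH7B on the opposite strand, OPLAH 4.66% with SMPD5, and GCLC 3.54% with GCLC-AS1 and 6.14% with a same-strand lncRNA. GLRX has a copy, GLRXP3, with 95% identity over 321 of 932 bases. Of these other genes, only MYH7B and GLRXP3 were among the symbols of the count tables. The shares describe bases and do not measure the error of a count, and their effect on the levels was not tested.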

How the data were processed

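The mRNA-seq libraries (12) were sequenced single end on a NextSeq 500. Per the labels and the study's methods, the authors mapped reads to hg19 with TopHat2 2.1.0, counted them on exons with HTSeq 0.11.2 in its intersection-nonempty mode without strand, and deposited raw counts per gene symbol; the annotation version is not given in the sources used here. The submitters' processing notes also name FastQC and Bowtie. From 15.9 to 17.1% of the reads of a file were in HTSeq's 5 counters of unassigned reads and were left out. As in the methods, rRNA genes (523) were removed, leaving 55242.

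For each comparison of 6 libraries, genes were kept if 1 of the groups had a mean TMM-normalized count of 10 or more, TMM factors were computed again, and edgeR's quasi-likelihood test was applied with Benjamini-Hochberg adjustment. DEGs needed a log2FC beyond 0.32 in either direction and an adjusted p below 0.1, and the interaction used all 12 libraries and the adjusted p alone. Levels per kb used canonical transcripts of GENCODE 44 on GRCh37. Likeness of patterns was Pearson's r of log2(normalized count + 1). Tools were R 4.3.3, edgeR 4.0.16, limma 3.58.1, DESeq2 1.42.0, Python 3.11.15, matplotlib 3.10.9 and blastn 2.17.0+. The fits were tested on simulated data.

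The genes named are the 9 members, NFE2L2, per comparison at most 4 called genes of the pathway list with the largest log2FC and a mean of at least 50, and the 5 genes of most similar pattern for CHAC1, GCLM, GCLC and GSR. Members and lists were chosen with earlier results of these data known. Alternatives were other scalings, filters, thresholds, DESeq2, all libraries in 1 fit, a replicate block and each library left out. TMM before the filter was chosen after seeing the data.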

Additional observations from a re-analysis of the deposited data

Results flagged for a closer look

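The response of CHAC1 to Cyss loss differed between NRF2 and GFP cells by the interaction test, with a log2 difference of -0.29 (NRF2 minus GFP; adjusted p = 0.0428 in the edgeR test). CHAC1 rose from 518 ± 27.9 to 2210.3 ± 91.9 normalized counts in GFP cells and from 522 ± 35.8 to 1820.2 ± 119.7 in NRF2 cells (SD, n = 3 each), and all 3 NRF2 libraries w/o Cyss were below all 3 GFP libraries w/o Cyss. The call held under all 9 other settings of the processing and in 9 of 12 fits that left out a library. The cause was not tested.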

How the results depend on the processing

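The calls of CHAC1 and GSR for Cyss loss in both kinds of cells, of OPLAH for Cyss loss in GFP cells, of GCLC for exogenous NRF2 with Cyss and of GCLM for exogenous NRF2 w/o Cyss held in every fit that left out a library and under all 11 other settings. Other counts of the 9 genes moved as follows, and the cause was not tested except where a threshold was itself changed. For Cyss loss in NRF2 cells, scaling by library size only gave 2 lower in place of 1, and no fold change threshold gave 3 higher and 3 lower. For NRF2 against GFP with Cyss, 1 in place of 2 was higher with DESeq2, with no filter on low counts, with TMM before the filter and at an adjusted p under 0.05, and 4 with no fold change threshold. For NRF2 against GFP w/o Cyss, scaling by library size only left 1 higher. No fold change threshold added GSR to the higher genes and gave 3 lower in place of 0. In the interaction, scaling by library size only gave 3 lower in place of 1, and DESeq2 and no filter gave 1 higher in place of 0.

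Leaving out 1 library at a time gave 1 to 2 lower genes for Cyss loss in both GFP and NRF2 cells, 1 to 3 higher genes for NRF2 with Cyss, 1 to 2 higher and 0 to 1 lower w/o Cyss, and 0 to 1 higher and 0 to 2 lower in the interaction. Signs turned for genes that were not called, whose log2FC ranged from -0.03 to 0.07 for CHAC1 and from -0.02 to 0.04 for GSS (NRF2 against GFP with Cyss), from -0.05 to 0.01 for GSS (Cyss loss in NRF2 cells), from -0.10 to 0.07 for CHAC2 (NRF2 against GFP w/o Cyss) and, around a value of 0.00, from -0.07 to 0.08 for GLRX (interaction). The labels share replicate numbers but name no pairing, so the numbers were not taken as pairs. Deviations of same-numbered libraries had correlations from -0.16 to 0.25, which do not settle whether libraries were paired. With the replicate block, 2 genes were lower and 1 higher in the interaction (GCLM higher, CHAC1 and GGCT lower), and CHAC2 became a DEG for Cyss loss in GFP cells.

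Over all genes, scaling by library size only gave 1397 lower DEGs in place of 887 for Cyss loss in NRF2 cells and 1981 in place of 1084 in the interaction. DESeq2 gave 91 higher and 14 lower DEGs in place of 237 and 35 for NRF2 with Cyss, and 422 in place of 708 lower w/o Cyss. No filter gave 185 in place of 93 lower genes for Cyss loss in GFP cells and 66 in place of 35 for NRF2 with Cyss, and all libraries in 1 fit gave 21 for the latter. An adjusted p under 0.05 gave 17 lower in place of 35 for NRF2 with Cyss and 528 in place of 1084 in the interaction. No fold change threshold gave 543 higher and 490 lower genes for Cyss loss with GFP, 2633 and 2379 with NRF2, and 724 and 398 for NRF2 with Cyss and 2425 and 2551 w/o Cyss. Left-out libraries gave 55 to 133 lower genes for Cyss loss with GFP, 142 to 254 higher and 15 to 56 lower for NRF2 with Cyss, 425 to 840 lower w/o Cyss, and 913 to 2119 higher and 482 to 1562 lower in the interaction. With 3 libraries a group, changes under the fold change threshold are the least certain, and CHAC2 had the fewest reads.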
